A study of Homo sapiens with 6 samples.

Results

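SMOC1 and 9 other matricellular genes were followed in RNA-seq libraries of A549 cells with and without silencing of FSCN1. The members, taken by their symbols from the table of raw counts, were SMOC1, SMOC2, SPARC, SPOCK1, SPP1, THBS1, TNC, FBLN1, FBLN5 and MGP. SMOC1 was chosen by its measured difference between NC and siFSCN1, having been much higher after FSCN1 silencing, so that difference is described here without a test. The others were added as genes of the same functional class. A row was matched for 9 of the 10 members among 30230 genes, SMOC2 was not analysed here, and 8 members were among the 17076 genes that passed the filter on low counts.

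A549 is a human lung adenocarcinoma cell line. The control group (NC, 3 libraries) carries a control plasmid in its labels and a scrambled siRNA in the study's methods, and the siFSCN1 group (3 libraries) was transfected with an siRNA against FSCN1, which encodes fascin, a protein that bundles actin filaments. The study's text speaks of transfection for both groups and of a single siRNA sequence for the silenced libraries, and whether NC received the same kind of agent is not settled by these sources. Libraries held between 27967301 and 36560919 counts, and polyadenylated RNA of the whole culture was read, so fewer expressing cells and less RNA per cell cannot be told apart. FSCN1 fell from 46.1 FPKM ± 1.13 (SD, n = 3) in NC to 3.49 FPKM ± 0.860 (SD, n = 3) in siFSCN1, where FPKM is the authors' value scaled to gene length and library depth.

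Matricellular proteins are secreted into the extracellular matrix but do not build its load-bearing fibres. They bind collagens, growth factors and cell surface receptors, and so tune adhesion, migration and growth factor signalling. SMOC1, SMOC2, SPARC and SPOCK1 belong to the SPARC family, which shares an extracellular calcium-binding domain. SMOC1 is also known as an antagonist of bone morphogenetic protein (BMP) signalling, and SPP1 (osteopontin) is a well-known product of lung adenocarcinoma cells.

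The epithelial identity of the cells was visible in the keratins, while alveolar markers were nearly absent. KRT18 had a mean of 1820 FPKM and KRT8 of 973 FPKM in NC, against 0.0900 FPKM for SFTPC and 0.0100 FPKM for NKX2-1. The summed level of 9 epithelial markers was 3117 to 3498 FPKM in NC and 1760 to 2117 FPKM in siFSCN1. This sum is carried by KRT18, KRT8 and KRT7. With edgeR, 35.1% of the 17076 genes tested were raised and 33.2% lowered (adjusted p below 0.05). By the same threshold, the 8 epithelial markers tested held 3 risers and 4 fallers. The risers were CDH1, the gene of E-cadherin (9.23 to 26.4 FPKM), MUC1 (0.497 to 1.51 FPKM) and EPCAM (3.15 to 4.30 FPKM). Markers of 9 fibroblast genes summed to 0.63 to 0.69 FPKM in NC and 0.45 to 0.77 FPKM in siFSCN1, and 5 endothelial markers to at most 0.07 FPKM in any library. The 5 leukocyte markers summed to 3.22 to 3.72 FPKM in NC and 4.12 to 5.15 FPKM in siFSCN1, mostly from CD14 (2.91 FPKM and 4.29 FPKM), while PTPRC, the defining leukocyte gene, was at 0.00333 FPKM in both. The part of these shifts in the values below was not tested.

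SMOC1 was the member with the largest difference between groups. SMOC1 (ENSG00000198732.11) is a protein-coding gene on the plus strand of GRCh38 chromosome 14, from 69854131 to 70032366, and shares no exonic base with another annotated gene. Its deposited level was 2.44, 2.36 and 2.58 FPKM in NC replicates 1 to 3 and 15.55, 14.7 and 13.86 FPKM in siFSCN1 replicates 1 to 3. The lowest siFSCN1 library thus lay far above the highest NC library. In raw counts the NC libraries held 392, 341 and 482 and the siFSCN1 libraries 2585, 2402 and 2313. After scaling, the group means were 13.5 CPM ± 0.565 (SD, n = 3) and 72.1 CPM ± 3.62 (SD, n = 3), where CPM is the count scaled to library size with the TMM factor. The fitted level was 5.31-fold higher in siFSCN1, a log2 fold change of 2.41 ± 0.0593 (SE). This difference ranked 2 of 5786 tested genes with at least 5 FPKM in the higher group, which is the property SMOC1 was chosen for.

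**Figure D1:**
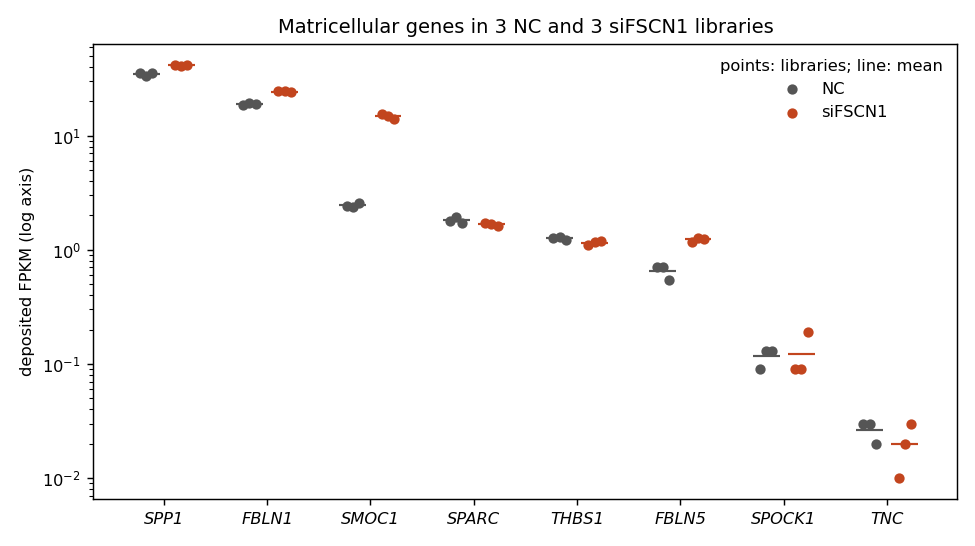
Deposited FPKM (vertical log axis) of 8 members in each of 3 NC and 3 siFSCN1 libraries, with points for libraries and lines for group means. SMOC1 moves from about the level of SPARC toward that of FBLN1. FBLN5 and, by less, FBLN1 and SPP1 lie above their NC level, while SPARC, THBS1, SPOCK1 and TNC stay near theirs. MGP is left out because it was at 0 in most libraries.

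The upstream sequences of SMOC1 and THBS1 are shown because SMOC1 had the largest difference, THBS1 is one of the members that were lower, and no annotated exon lies in their windows. Each run holds the 250 bases before the RefSeq start in GRCh38.p14, read 5′ to 3′ on the plus strand, at chr14:69879166-69879415 for SMOC1 and chr15:39580829-39581078 for THBS1. Capitals mark matches on either strand to the TATA box TATAAA, the GC box GGGCGG, the AP-1 letters TGANTCA and the TEAD core CATTCC, and a capital run longer than a motif holds overlapping matches.
SMOC1: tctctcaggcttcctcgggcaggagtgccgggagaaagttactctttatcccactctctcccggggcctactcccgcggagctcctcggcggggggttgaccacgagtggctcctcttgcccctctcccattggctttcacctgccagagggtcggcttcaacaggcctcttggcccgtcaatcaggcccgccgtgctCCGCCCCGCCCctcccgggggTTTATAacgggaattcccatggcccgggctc
THBS1: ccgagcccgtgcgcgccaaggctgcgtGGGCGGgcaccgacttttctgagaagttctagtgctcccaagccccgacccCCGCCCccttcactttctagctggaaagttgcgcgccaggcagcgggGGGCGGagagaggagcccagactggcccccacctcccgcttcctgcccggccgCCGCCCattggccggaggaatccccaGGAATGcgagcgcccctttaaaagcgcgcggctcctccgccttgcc
The SMOC1 window holds 2 overlapping GC boxes and 1 TATA box on the opposite strand, and the THBS1 window holds 4 GC boxes and 1 TEAD core. Among 35116 RefSeq windows of this length 42.6% hold a GC box, 10.7% a TATA box, 11.9% a TEAD core and 6.57% the AP-1 letters. The GC content is 65.6% for SMOC1 and 69.6% for THBS1, beside a median of 58% over all windows. In GENCODE v44 the SMOC1 window lies inside the annotated span of the gene, which begins at 69854131, and outside its exons. A match describes these letters and not the binding of a factor.

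Of the other members, none was changed at least 2-fold, and 4 of the 7 tested had an adjusted p under 0.05 (edgeR, quasi-likelihood). In all tested genes, 16.5% were changed at least 2-fold at that threshold, 11.7% higher and 4.85% lower in siFSCN1. That split was 1991 higher and 829 lower genes, against 2354 and 629 with upper quartile scaling and 2637 and 510 with library totals. Without the fold threshold 35.1% of tested genes were higher and 33.2% lower, so a count of 2 higher and 2 lower among 7 members stays near this background. The CPM ranges of the groups did not overlap for 5 of the 7, against 71.3% of all tested genes. The median log2 fold change of the 7 was -0.08, beside 0.03 over all tested genes.

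Besides SMOC1, the members that were higher past the threshold were the fibulins, glycoproteins of elastic fibres and basement membranes. FBLN5, which is needed for elastic fibre assembly, had 0.7, 0.7 and 0.54 FPKM in NC replicates 1 to 3 and 1.17, 1.28 and 1.25 FPKM in siFSCN1 replicates 1 to 3. The groups did not overlap, and every siFSCN1 library was above every NC library. Its log2 fold change was 0.78 ± 0.13 (SE), with a 95% interval of 0.50 to 1.05 (edgeR, adjusted p = 3.78e-05), a rise of 71.4%. FBLN5 lies on chromosome 14 (91869411 to 91947987, minus strand), the chromosome that also carries SMOC1.

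FBLN1, a fibulin of basement membranes and blood plasma, was the second most abundant member. It had 18.32, 19.4 and 18.84 FPKM in NC and 24.46, 24.54 and 23.81 FPKM in siFSCN1, again with no overlap. After TMM scaling its rise was 14.8%, a log2 fold change of 0.20 ± 0.0378 (SE; edgeR, adjusted p = 0.000144). The deposited FPKM, which do not carry the TMM factor, had group means of 18.9 and 24.3. FBLN1 is on chromosome 22 (45502238 to 45601135, plus strand).

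SPP1, the secreted phosphoprotein osteopontin that binds integrins and CD44, had the highest level of all members in both groups. Its values were 35.54, 33.39 and 35.55 FPKM in NC and 41.53, 40.8 and 41.72 FPKM in siFSCN1. The libraries of the groups did not overlap in FPKM, nor in CPM, where the means were 318 CPM ± 11.9 (SD, n = 3) and 336 CPM ± 3.53 (SD, n = 3). SPP1 thus had a log2 fold change of 0.08 with a 95% interval of 0.0031 to 0.16, and missed the threshold (edgeR, adjusted p = 0.0609). This call depended on the scaling. With library totals the log2 fold change was 0.27 at an adjusted p of 1.99e-06, and with upper quartile scaling 0.20 at 0.000149. SPP1 is on chromosome 4 (87975667 to 87983532), and 196 of its exonic bases are shared with a gene on the opposite strand.

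SPARC and THBS1 were lower by a small amount. SPARC (osteonectin) binds collagen and calcium and gives its name to the family. It had 1.78, 1.94 and 1.7 FPKM in NC and 1.72, 1.69 and 1.62 FPKM in siFSCN1, so that the groups overlapped in FPKM although not in CPM. Its log2 fold change was -0.27 ± 0.104 (SE; edgeR, adjusted p = 0.0291). Without NC replicate 2 the adjusted p was 0.0792, at a log2 fold change of -0.23. THBS1, thrombospondin 1, is a large glycoprotein that can activate latent TGF-beta and binds CD36 and CD47. THBS1 had 1.26, 1.29 and 1.22 FPKM in NC and 1.11, 1.16 and 1.2 FPKM in siFSCN1, close together but without overlap. For THBS1 the log2 fold change was -0.28 ± 0.0908 (SE; edgeR, adjusted p = 0.0103). Neither fall held with library totals, where the adjusted p was 0.5 for SPARC and 0.377 for THBS1, or with upper quartile scaling, where it was 0.207 and 0.117. SPARC shares 191 exonic bases with CLMAT3 on the opposite strand. THBS1 shares 411 exonic bases with THBS1-AS1 and 448 with FSIP1 on the opposite strand, and the strand setting of the counting was not stated.

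**Figure D2:**
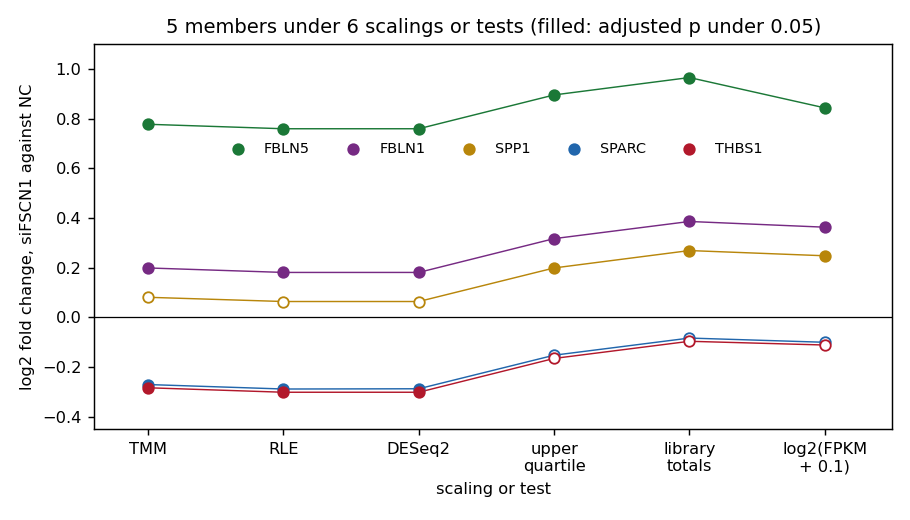
Log2 fold change of siFSCN1 against NC (vertical axis) for 5 members under 6 scalings or tests (horizontal axis), with filled points at an adjusted p under 0.05. FBLN5 and FBLN1 are above 0 and filled throughout, while SPP1 is filled only with upper quartile scaling, library totals and log2(FPKM + 0.1), and SPARC and THBS1 only with TMM, RLE and DESeq2.

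The last members were near the limit of detection. SPOCK1, a SPARC family proteoglycan, had 21, 26 and 34 counts in NC and 21, 20 and 46 counts in siFSCN1. The groups overlapped, and the log2 fold change of -0.07 had a wide 95% interval of -0.77 to 0.62 and an adjusted p of 0.851 in edgeR. TNC (tenascin C), an oligomeric glycoprotein of wounds and tumour stroma, had 11, 9 and 9 counts in NC and 5, 8 and 11 counts in siFSCN1. Its log2 fold change was -0.45 (edgeR, adjusted p = 0.395), and the 95% interval of -1.41 to 0.51 holds both a 2-fold fall and a rise. MGP (matrix Gla protein), an inhibitor of calcification and of BMPs, had 1, 0 and 3 counts in NC and 0 counts in each siFSCN1 library. A count of 0 allows up to 0.0918 to 0.0971 CPM per library, here scaled to library totals without the TMM factor. No fold is given for MGP, and this limit covers counting error only.

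**Figure D3:**
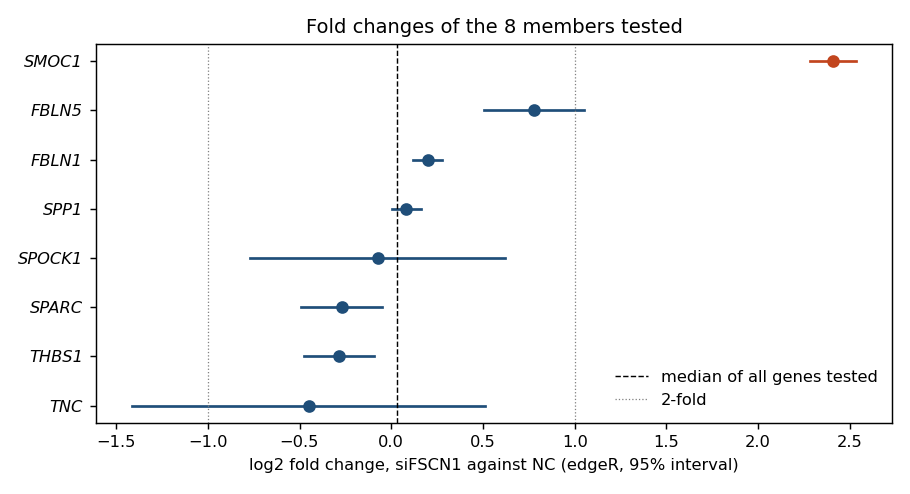
Log2 fold change of siFSCN1 against NC (horizontal axis) with 95% intervals from edgeR for the 8 members tested, ordered by size. SMOC1 at 2.41 lies beyond the dotted 2-fold line, FBLN5 at 0.78 does not, and the intervals of TNC and SPOCK1 span 0 widely. SMOC1 was chosen for its rise, and its interval is a description.

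The order of levels changed little, since SMOC1 was the third most abundant member in both groups. In NC the order by mean FPKM was SPP1 (34.8), FBLN1 (18.9), SMOC1 (2.46), SPARC (1.81), THBS1 (1.26), FBLN5 (0.647), SPOCK1 (0.117), TNC (0.0267) and MGP (0.0100). In siFSCN1 it was SPP1 (41.4), FBLN1 (24.3), SMOC1 (14.7), SPARC (1.68), FBLN5 (1.23), THBS1 (1.16), SPOCK1 (0.123), TNC (0.0200) and MGP (0). FBLN5 and THBS1 traded places, but their siFSCN1 libraries overlapped, as did those of TNC and MGP in NC. All other neighbours were separated in every library. SMOC1 took 4.10% ± 0.142 (SD, n = 3) of the FPKM summed over the 9 members in NC and 17.4% ± 0.799 (SD, n = 3) in siFSCN1. The share of SPP1 went from 58.0% ± 1.46 (SD, n = 3) to 48.9% ± 0.812 (SD, n = 3), although its own level was not lower. The sum without SMOC1 was 56.88 to 58.02 FPKM in NC and 69.58 to 70.09 FPKM in siFSCN1, a gap carried by SPP1 and FBLN1. These FPKM do not carry the TMM factor, so the gap is in part one of scaling. After TMM scaling SPP1 was higher by only 5.81% (edgeR, adjusted p = 0.0609) and FBLN1 by 14.8%.

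The genes whose pattern over the 6 libraries was most like that of SMOC1 were OGFR, RHOB, SLC39A11, PPP1R3C and UGT1A8. Pearson's r of their log2 CPM with SMOC1 ran from 0.9994 to 0.9997 over 6 libraries, among 5785 genes with at least 5 FPKM in the higher group. The points share the same 2 groups of libraries, and 310 of those genes (5.36%) had an r over 0.99. Their log2 fold changes, from 0.42 for UGT1A8 to 1.17 for PPP1R3C, were all smaller than that of SMOC1. UGT1A8 shares exons with other genes of its locus, so its value is uncertain.

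Among relatives of the members, several genes changed 2-fold in either direction. Of 23 SPARC family, thrombospondin, tenascin, CCN, SIBLING and periostin family genes 9 were tested. All 9 passed an adjusted p of 0.05, 4 higher and 5 lower, beside 35.1% higher and 33.2% lower among all tested genes. Of these 9 genes, 3 were changed at least 2-fold upward and 3 downward, or 66.7% against 16.5% of all tested genes. TGFBI, a matrix adapter protein related to periostin, was the most abundant of them and fell from 70.7 FPKM ± 2.51 (SD, n = 3) to 21.9 FPKM ± 1.11 (SD, n = 3), a log2 fold change of -1.86 (edgeR, adjusted p = 3.06e-16). CCN5 (-1.67) and CCN3 (-1.91), growth-regulating CCN proteins, fell as well, from 3.98 to 1.40 FPKM and from 1.53 to 0.457 FPKM. The other CCN genes tested did less, with CCN2 (0.83) going from 3.16 to 6.3 FPKM and CCN1 (-0.21) from 5.82 to 5.64 FPKM. THBS3, a thrombospondin, rose from 1.02 FPKM ± 0.122 (SD, n = 3) to 4.26 FPKM ± 0.267 (SD, n = 3), a log2 fold change of 1.90. SPOCK2 (1.96) and TNXB (2.99) also rose but from 0.05 and 0.01 FPKM. With 4, 3 and 6 counts in NC, TNXB passed the filter on low counts through siFSCN1, as did SPOCK2 with 13, 8 and 13. The 3 risers and the share of 66.7% thus include genes tested only through the group where they were high. THBS3 shares 1198 exonic bases with THBS3-AS1 on the opposite strand, and TNXB overlaps its neighbours and has a near-identical partial copy, so both values are uncertain.

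The list of other fibulins and elastic fibre genes contained more higher than lower genes. Of 20 genes 13 were tested, 8 rose and 3 fell at an adjusted p under 0.05, against 35.1% and 33.2% of all tested genes, and their median log2 fold change was 0.72, against 0.03 over all. At least 2-fold changes made up 38.5% of the list and 16.5% of all tested genes. Those changed at least 2-fold were EFEMP2 (2.79), FBLN7 (2.70), LTBP2 (1.32) and EMILIN1 (1.12), which rose, and ELN (-1.14), the gene of elastin, which fell. LTBP2, a microfibril protein, rose from 0.453 FPKM ± 0.0231 (SD, n = 3) to 1.26 FPKM ± 0.0351 (SD, n = 3). The other 4 were at or below 0.327 FPKM in each group. FBLN7 had 1, 2 and 2 counts in NC and 11, 14 and 14 in siFSCN1. EFEMP2 had 3, 11 and 10 counts in NC and 65, 61 and 65 in siFSCN1. Both passed the filter on low counts through siFSCN1, so their place among the genes tested depended on the group where they were high. The most abundant gene of the list was LOXL2, a collagen and elastin crosslinking enzyme, which fell from 24.7 FPKM ± 1.54 (SD, n = 3) to 15.9 FPKM ± 0.439 (SD, n = 3), a log2 fold change of -0.80. Direction went with abundance over all genes. Where the mean was at most 0.5 FPKM (3942 tested genes), 29.1% were changed at least 2-fold upward and 5.38% downward, with a median log2 fold change of 0.48. Over 5 FPKM (5317 tested genes), where TGFBI, LOXL2, ID1, ID3 and MMP7 lie, 1.9% were changed upward and 5.7% downward, with a median of -0.22. The part of abundance in the list values was not tested.

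BMP signalling, which SMOC1 and MGP are known to restrain, runs from secreted ligands over type I and II receptors to SMAD1, SMAD5 and SMAD9 and to target genes such as the ID genes. Of 28 pathway genes 23 were tested, 9 rose and 8 fell at an adjusted p under 0.05, near the 35.1% and 33.2% of all tested genes, and the median log2 fold change was 0.08. Genes changed at least 2-fold made up 30.4% of those tested, against 16.5% of all. The main ligand by level, BMP4, had 12.4 FPKM ± 0.563 (SD, n = 3) in NC and 13.9 FPKM ± 0.376 (SD, n = 3) in siFSCN1, a log2 fold change of -0.0068. BMP7 (-1.14) fell from 0.17 FPKM. Of the receptors, BMPR1B rose from 1.82 FPKM ± 0.0643 (SD, n = 3) to 4.46 FPKM ± 0.310 (SD, n = 3), a log2 fold change of 1.13. The secreted regulators GREM1 (1.38) and BMPER (1.92) rose, each from at most 0.103 FPKM. With 6, 7 and 6 counts in NC, BMPER passed the filter on low counts through siFSCN1. SMAD1, the signal transducer, fell from 0.873 FPKM ± 0.101 (SD, n = 3) to 0.373 FPKM ± 0.0208 (SD, n = 3), a log2 fold change of -1.39. On the opposite strand SMAD1 shares 376 exonic bases with SMAD1-AS1 and GREM1 shares 367 with GREM1-AS1, so both values are uncertain.

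The ID genes, transcription regulators induced by BMPs, were lower where they were tested. Of all tested genes 33.2% were lower, and over 5 FPKM, where the tested ID genes lie, the median log2 fold change was -0.22. In the same list SMAD6 (-0.16), SMAD7 (-0.28) and BAMBI (0.08) differed less. The part of BMP signalling in these values was not tested. ID3 had 155.5, 145.74 and 151.19 FPKM in NC and 93.15, 78.28 and 78.22 FPKM in siFSCN1, a log2 fold change of -1.03 ± 0.0522 (SE; edgeR, adjusted p = 6.09e-12). ID1, the most abundant gene of the list, went from 174 FPKM ± 13.7 (SD, n = 3) to 147 FPKM ± 8.97 (SD, n = 3), a log2 fold change of -0.41 with an adjusted p of 1.01e-06 in edgeR. ID3 was 2-fold lower in 8 of 15 alternative settings and stayed lower in all 15.

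Receptors and processing enzymes of the members changed mostly by less than 2-fold. Of 18 integrins, syndecans and other receptors 14 were tested, 8 rose and 4 fell at an adjusted p under 0.05, beside 35.1% and 33.2% of all tested genes, with a median log2 fold change of 0.38. The share changed at least 2-fold was 14.3%, near the 16.5% of all. ITGB5, a vitronectin receptor chain with the highest mean over all libraries, rose from 36.4 FPKM ± 0.437 (SD, n = 3) to 54.8 FPKM ± 0.436 (SD, n = 3), a log2 fold change of 0.42. The 2-fold changes were those of ITGB6 (1.96) and ITGA4 (-1.87), both under 0.5 FPKM. With 6, 7 and 10 counts in siFSCN1, ITGA4 passed the filter on low counts through NC. ITGA4 shares 2813 exonic bases with CERKL on the opposite strand, and ITGB6 shares 966 with a gene on its own strand, so both are uncertain. Of 11 modifying enzymes and proteases 9 were tested, 3 rose and 5 fell, beside 35.1% and 33.2% of all tested genes, and 11.1% were changed at least 2-fold, against 16.5% of all. MMP7, a protease that cleaves osteopontin, had the highest level and fell from 62.0 FPKM ± 1.26 (SD, n = 3) to 41.2 FPKM ± 1.96 (SD, n = 3), a log2 fold change of -0.76. F2, the gene of prothrombin, was at the 2-fold limit with a log2 fold change of 1.0014, and it stayed past the limit in 6 of 15 alternative settings.

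**Figure D4:**
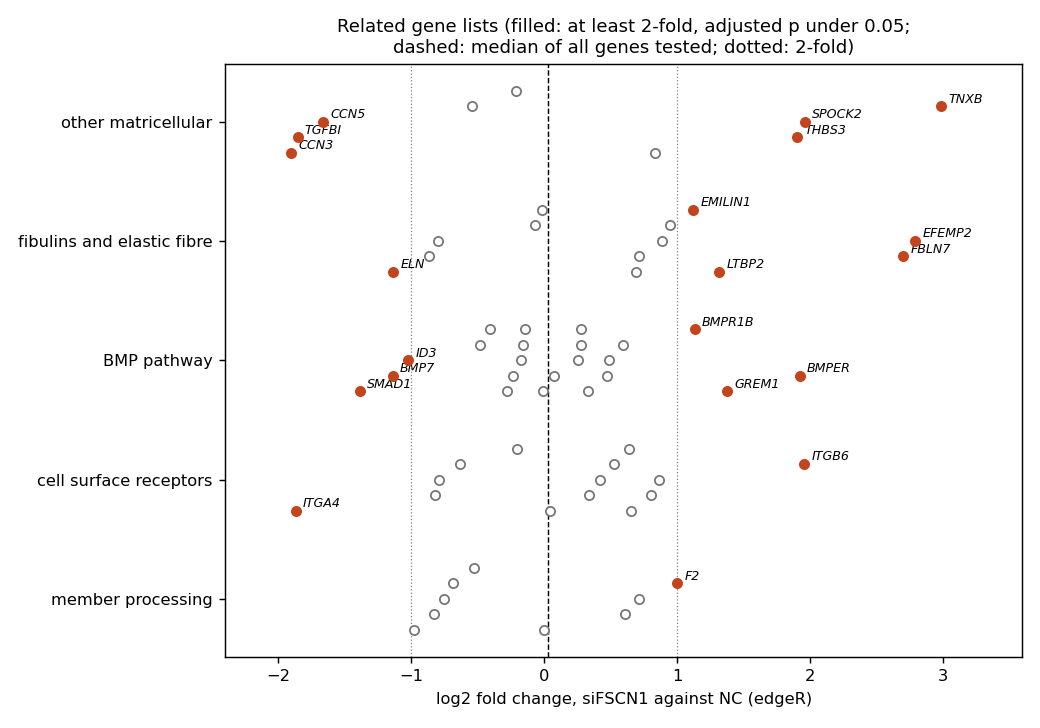
Log2 fold change of siFSCN1 against NC (horizontal axis) for tested genes of 5 related lists, 1 row of points a list with points spread vertically for legibility. Filled and named points were changed at least 2-fold with an adjusted p under 0.05, from TNXB at 2.99 down to CCN3 at -1.91.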

How the data were processed

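Polyadenylated RNA of A549 cells was sequenced in 3 NC and 3 siFSCN1 libraries, grouped and numbered by the sample titles. Reads were trimmed by the authors, and HISAT2 placed them on GRCh38 (TopHat2 is named in the submitters' processing notes). The authors deposited raw counts for 30230 genes. The authors also deposited FPKM for 29899 genes, rounded in the table. Counts and FPKM were made by the authors from uniquely mapped reads. The program, strand setting and annotation release used for counting are not given in the sources used here.

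The filter on low counts could keep a gene by the counts of either group alone. Genes kept by filterByExpr (17076) were scaled by TMM. Groups were compared in edgeR 4.0.16 (R 4.3.3) by the quasi-likelihood test, without covariates and with Benjamini-Hochberg adjustment over all of them, in place of the authors' DESeq2, which was run as an alternative. A gene was changed at an adjusted p under 0.05 and at least 2-fold. Standard errors came from the fold change and its F statistic. The fit was tested on simulated data first. Positions and exon overlaps came from GENCODE v44 (30147 of 30230 identifiers matched) and upstream sequences from RefSeq, GRCh38.p14, which held 8 of the 10 members. Exon overlaps not detailed above were found for CCN3, LTBP2, ELN, EFEMP2, TNC, MGP, CDH1, KRT7 and MUC1.

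The members and gene lists were chosen with earlier results of these data known. Named genes were the members, FSCN1, genes of the 5 related lists changed at least 2-fold, the most abundant gene of each of these lists, and the 5 genes most like SMOC1. In the BMP pathway list 1 gene is counted but is not reported here. Genes of the marker lists, BMP4, SMAD6, SMAD7, BAMBI, FSTL1, SPOCK3, CCN1 and CCN2 were named outside this rule, after their values were seen. Alternatives were RLE, upper quartile and library total scaling, DESeq2, no filter or a stricter one, limma 3.58.1 on log2(FPKM + 0.1) and log2(FPKM + 1), a replicate block and leaving out each library. The study's text speaks of 3 biological replicates, but it does not say whether they were separate cultures, and nothing in the labels does. The p-values therefore measure the spread between these libraries, which may be in part technical. Replicates of a group differed by more than sampling noise in every pair (chi-square over its degrees of freedom 3.03 or more).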

Additional observations from a re-analysis of the deposited data

How the results depend on the processing

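No member besides SMOC1 was changed 2-fold under any of the 15 settings, and between 3 and 5 of the others passed an adjusted p of 0.05. The 5 came with the stricter filter, which left SPOCK1 and TNC untested. SMOC1 stayed higher in each setting, with a log2 fold change of 2.53 with upper quartile scaling, 2.60 with library totals, 2.53 on log2(FPKM + 0.1) and 2.18 on log2(FPKM + 1), and from 2.36 to 2.44 without 1 library. These scalings move every gene together, the median of all genes being 0.15 and 0.22 with upper quartile scaling and library totals. SPOCK1, never past the threshold, turned to 0.042 with upper quartile scaling, 0.11 with library totals, 0.02 on log2(FPKM + 0.1), 0.008 on log2(FPKM + 1), 0.106 without siFSCN1 replicate 1 and 0.110 without siFSCN1 replicate 2, and was -0.577 without siFSCN1 replicate 3. SPP1 passed the adjusted threshold in 5 of 15 settings, THBS1 in 11 and SPARC in 10. FBLN1 and FBLN5 passed it in all 15, with log2 fold changes of 0.18 to 0.39 and 0.44 to 0.97.

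For counts of list genes changed 2-fold, log2(FPKM + 1), which shrinks low genes, gave 3 other matricellular genes in place of 6, 0 in the other 4 lists and 471 changed genes in all. On log2(FPKM + 0.1) the counts were 3 elastic fibre, 2 BMP pathway and 1 receptor gene, and the stricter filter, which tests fewer genes, gave 3 BMP pathway genes and 1 receptor gene. The count of modifying enzymes, with F2 at the limit, was 0 with RLE scaling and 0 to 2 without 1 library, namely 2 without siFSCN1 replicate 2 and 0 without siFSCN1 replicate 3. By counts in place of FPKM, SMOC1 took 11.3% of the summed members in siFSCN1. Ranked by CPM per kb of exonic length, 7 of 9 members kept their rank in both groups. Same-numbered libraries did not deviate together, with correlations of their deviations of -0.035, 0.04 and -0.084. With the replicate block, SMOC1 had a log2 fold change of 2.41, 4 other members passed the adjusted threshold and 2827 genes were changed in all, against 2820 without it, and no call of a member moved.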

Other observations

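SPOCK3, a proteoglycan of the SPARC family that did not pass the filter on low counts and was picked after its values were seen, had 0 counts in each NC library and 3, 16 and 6 counts in siFSCN1 replicates 1 to 3. It is listed at 0 in the NC libraries, which allows up to 0.0821 to 0.107 CPM per library, scaled to library totals without the TMM factor. In siFSCN1, 1 library lies at the 3 counts that this limit stands for. No fold or test is given for it. Besides SMOC1 (2.41), which was chosen for its rise, the tested genes of the same family gave no common direction. Their log2 fold changes were 1.96 for SPOCK2, -0.07 for SPOCK1, -0.27 for SPARC and -0.54 for FSTL1. Of these, SPOCK2 passed the filter on low counts through siFSCN1.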
